A study of Mus musculus with 2 samples.

Results

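The clock output genes described here are 7 genes through which the circadian clock acts on the rest of the cell. They are the PAR bZip transcription factors Dbp, Tef and Hlf, the repressors Bhlhe40 and Gm129, the deubiquitinating enzyme Usp2, and Ccrn4l, which encodes nocturnin. They were chosen by gene symbol, with their values in the libraries of normal and diabetic liver already known, so the differences between the libraries are given as a description and without a test. All 7 genes were found among the 8551 genes of the deposited table.

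Liver was taken from 9-week-old male C57BL/6 wild type mice, called normal, and from 9-week-old male db/db mice, called diabetic. Both groups carry the label C57BL/6 for strain background, both had chow and water freely, and all livers were collected about 3 h after the lights came on. Mice homozygous for the db mutation lack the signalling form of the leptin receptor in every tissue, eat more and become obese and diabetic, so that the mutation, the obesity and the diabetes come together in this model. Digital gene expression tags of poly(A) RNA were sequenced as 1 library per group, and the study does not say how many livers went into each library. A difference between the libraries therefore has no replicate check, and genotype and library cannot be told apart. The mice came from more than 1 supplier, and the study does not say outright which group came from which. Supplier and genotype may therefore not be separable. With livers from 1 time of day, a difference in daily timing and a difference in level over the day cannot be told apart either.

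In the liver, the activators Clock and Bmal1 (listed as Arntl) bind E-boxes and drive their own repressors and a layer of output genes. Dbp, Tef and Hlf then act on D-boxes in genes of drug, bile acid and lipid metabolism, while Bhlhe40 and Gm129 repress at E-boxes and feed back on the clock. In mouse liver, transcripts of Dbp swing widely over the day, from very low in the late night to a peak in the later hours of light, and Arntl runs in roughly the opposite phase.

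All 7 clock output genes were at least 1.5-fold higher in the diabetic library and 0 were lower. Of all listed genes, 34.4% were at least 1.5-fold higher and 15.3% at least 1.5-fold lower. The largest differences were those of Dbp, Usp2 and Gm129, which were listed at 0 in the normal library, and of Ccrn4l, at 20.5-fold. The difference was smaller for Tef, at 5.79-fold, and smallest for Bhlhe40 and Hlf, at 2.22-fold and 1.77-fold. The direction and the size of these differences belong to the comparison with which the genes were chosen.

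The sites at which these genes could be read are shown first, because each level rests on tags next to a DpnII site. DpnII cuts at GATC, and a tag is the site with the bases after it. The deposited table holds totals per gene and no tags, so the last site before the 3′ end was read from GENCODE M21 transcripts (GRCm38), with 21 bases from the site on, in 1 coding transcript per gene. Coding transcripts of Hlf, Bhlhe40 and Usp2 had 2 different last tags, of which 1 is shown. Capitals mark the DpnII site, and 6 of the 7 genes are shown.
Dbp: GATCtcgccctgtcaagcatt
Tef: GATCcttgaattctaaggagt
Hlf: GATCtcagacagctctgtgtg
Bhlhe40: GATCtacacagtgaggaaaaa
Usp2: GATCttggtgctccacctgaa
Ccrn4l: GATCgaacaggatgtacacta

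Each of these transcripts had several such sites, from 3 in Dbp to 13 in Bhlhe40. Each of these 6 last tags was found in the sense strand of transcripts of 1 gene only, so none of them is common to Dbp, Tef and Hlf. Over all sites of these transcripts the same held. The tag of Dbp lies at chr7:45708340-45708360 on the plus strand, in the coding sequence of exon 3 of 4. That of Tef lies at chr15:81825968-81825988 on the plus strand and that of Hlf at chr11:90337059-90337079 on the minus strand, both in the 3′ UTR of the last exon. The tag of Usp2 starts in exon 9 of 12 and runs over a splice junction, spanning chr9:44092542-44092708 on the plus strand. The tags of Bhlhe40 (chr6:108666576-108666596) and of Ccrn4l, now named Noct (chr3:51251036-51251056), lie in 3′ UTRs on the plus strand. Which of these sites gave the counted tags is not stated, so levels are compared between libraries and not between genes.

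Levels are in TPM, here tags of a gene scaled to the clean tags of its library (per 1000000 clean tags). The values rise in equal steps, and 1 step of 0.0973 TPM in the normal library or of 0.0740 TPM in the diabetic library is 1 read. By these steps the libraries held 10278531 and 13508232 clean tags, of which 3809707 and 5993204 were on listed genes. Intervals below are exact at 95% and count only the error of sampling reads, and reads without molecular identifiers are not independent molecules. For a gene without any read the limit taken is 3 reads, that is 0.292 TPM in normal liver. The exact upper limit for 0 reads is higher, 0.359 TPM there. Lower bounds of ratios below are taken against the 3 reads and leave out counting error in each library. No gene had exactly 1 read in either library, while 17 genes had 2 reads and 20 had 3 reads in the normal library, so a listed 0 may also stand for 1 read.

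Dbp (Entrez 13170), D-site albumin promoter binding protein and the PAR bZip factor with the strongest daily swing, had 0 reads in normal liver against 191 reads in diabetic liver, where its level was 14.1 TPM (interval 12.2 to 16.3). Against 3 reads in the normal library, Dbp was 48.4-fold higher, a log2 ratio of 5.60. Within counting error the difference may be smaller, since the exact upper limit of its level in normal liver was 0.359 TPM. In the order of log2 ratios over all listed genes, with genes at 3 reads or fewer set to 3 reads, Dbp was at rank 11 from the highest.

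Tef (Entrez 21685), thyrotroph embryonic factor, had 96 reads in the normal library, 9.34 TPM (interval 7.57 to 11.4), and 730 reads in the diabetic library, 54.0 TPM (interval 50.2 to 58.1). The 2 intervals lay far apart, and the log2 ratio was 2.53 (interval 2.22 to 2.86). Hlf (Entrez 217082), hepatic leukemia factor, had only 28 and 65 reads, or 2.72 TPM (1.81 to 3.94) and 4.81 TPM (3.71 to 6.13). These intervals overlapped, and the log2 ratio of Hlf was 0.82 with an interval of 0.16 to 1.52, which reaches well under 1.5-fold.

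The 3 factors bind the same D-box sequence as dimers, and their shares of the tags differed between the libraries. Together they had 124 reads in normal liver against 986 in diabetic liver. Dbp made up 0 of 124 reads, which by the limit of 3 reads allows a share of up to 2.42% (exact upper limit 2.93%), and 19.4% of the 986 reads (interval 16.9% to 22%). The share of Hlf was 22.6% (15.6% to 31%) in normal and 6.59% (5.12% to 8.33%) in diabetic liver. Tef made up most of these reads in each library, 77.4% (69% to 84.4%) and 74.0% (71.2% to 76.7%). Because tags are not compared between genes, these shares do not rank the levels of the factors. Shares within a library do not depend on how the libraries are scaled to each other.

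Bhlhe40 (Entrez 20893), also known as Dec1, is a basic helix-loop-helix repressor that binds E-boxes and also answers to feeding and low oxygen. Its level was 23.6 TPM in normal liver (interval 20.8 to 26.8, 243 reads) against 52.4 TPM in diabetic liver (48.6 to 56.4, 708 reads). Its log2 ratio of 1.15 (interval 0.94 to 1.36) stayed above 1.5-fold over the whole interval. Its paralog Bhlhe41 was not analysed here.

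Gm129 (Entrez 229599), also named Ciart or Chrono, represses transcription by Clock and Bmal1. It had 0 reads in normal liver against 61 in diabetic liver, 4.52 TPM (interval 3.45 to 5.80). Set against 3 reads in the normal library, Gm129 was 15.5-fold higher in the diabetic library. Usp2 (Entrez 53376), a ubiquitin-specific protease with a rhythmic transcript in many tissues, had 0 and 96 reads and reached 7.11 TPM (interval 5.76 to 8.68) in the diabetic library. By the same limit of 3 reads Usp2 was 24.4-fold higher, again without counting error.

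Ccrn4l (Entrez 12457) encodes nocturnin, a protein related to the Ccr4 deadenylases that is linked to lipid handling. It had 15 reads in the normal library, 1.46 TPM (interval 0.817 to 2.41), and 404 reads in the diabetic library, 29.9 TPM (27.1 to 33.0). Its log2 ratio of 4.36 (interval 3.62 to 5.21) was the highest of the members with reads in each library. Of its relatives Cnot6, Cnot6l, Angel1, Angel2 and Pde12, only Angel2 and Pde12 were listed. Angel2 had 36 and 90 reads and Pde12 had 15 and 39 reads, 1.90-fold and 1.98-fold higher in the diabetic library, against 20.5-fold for Ccrn4l.

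**Figure D1:**
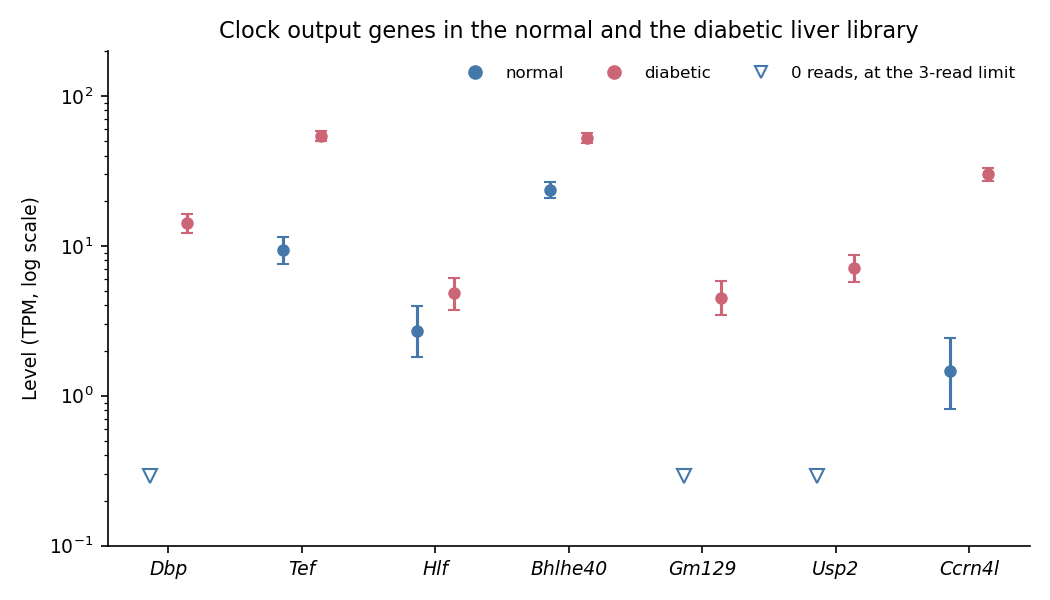
Level of each clock output gene in TPM on a log axis, with 1 point per library and exact 95% intervals for counting error as bars. Open triangles stand at 0.292 TPM, the 3-read limit, for Dbp, Gm129 and Usp2 with 0 reads in the normal library, and every diabetic point lies above the normal one of its gene.

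Dbp, Gm129 and Usp2 were 3 of 38 genes listed at 0 in the normal library, 0.444% of all listed genes. The table leaves out genes with a mean under 1 TPM, so a gene at 0 in the normal library is listed only if it reached about 2 TPM in the diabetic library and had to differ. Tef, Hlf and Bhlhe40 were above 2 TPM in normal liver alone and would be listed at any level in the other library, and Ccrn4l, at 1.46 TPM, at an equal one. A listed 0 is a count of tags and not by itself absence of the transcript. In the diabetic library 14 genes were listed at 0, among them Vdac2, a mitochondrial channel gene that most cells use. Whether its RNA was present there was not tested. Whether the 0 of the 3 members comes from missing RNA or from missing tags was not tested.

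By the order of log2 ratios the members fell into a group of large differences, with Dbp, Usp2, Ccrn4l and Gm129, then Tef, then Bhlhe40 and Hlf. Ccrn4l exceeded Tef by 1.82 in log2 ratio (95% interval for counting error, 1.02 to 2.63), and Tef exceeded Bhlhe40 by 1.38 (1.01 to 1.76). Bhlhe40 and Hlf, with a difference of 0.33 (-0.35 to 1.00), could not be ordered at this depth. The 3 members listed at 0 have only lower bounds and could not be ordered among themselves. The bounds of Dbp, Usp2 and Gm129, 5.60, 4.61 and 3.95, rest on a fixed 3 reads in the normal library and leave out counting error. They were therefore not ordered against Ccrn4l, whose interval ends at 5.21. The median log2 ratio of the 7 members was 3.95 with Dbp, Usp2 and Gm129 at their bounds, and 0.25 over all listed genes.

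**Figure D2:**
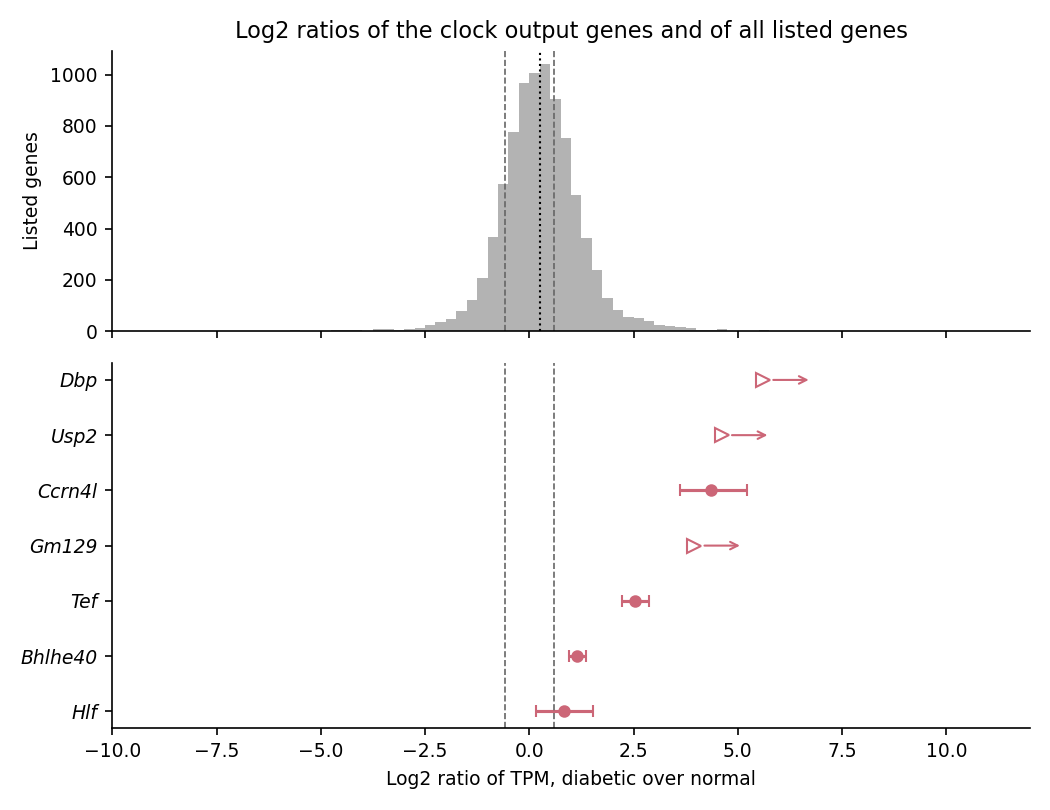
Top, number of listed genes by log2 ratio of TPM, diabetic over normal, in bins of equal width, with the median of 0.25 dotted. Bottom, log2 ratio of each clock output gene with its 95% interval for counting error, open triangles with arrows being lower bounds for genes at 0 in the normal library. Dashed lines mark 1.5-fold in each direction, and the points of all 7 genes lie to the right of the upper one, while the interval of Hlf crosses it.

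The typical gene was higher in the diabetic library, so the ratios were also computed under 4 other scalings, which took 0.25 to 0.31 off each log2 ratio. Each of them left 6 of the 7 members at least 1.5-fold higher, and Hlf fell just under that threshold, to 1.43-fold under median-ratio scaling and to 1.48-fold under trimmed-mean (TMM) scaling. The share of all listed genes at least 1.5-fold higher was then 23.7% with the summed level of the listed genes made equal, 24.0% for TMM, 21.9% for the median ratio and 23.4% for the upper quartile. Bhlhe40 stayed at 1.79-fold or more, and the bound of Dbp at 39.2-fold or more, under all 4 scalings.

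The place of a gene in the order of levels within its library does not depend on scaling either. Percentiles are read for each gene between the libraries and do not rank the members by level. Ccrn4l was at percentile 10.9 of the listed genes in normal liver but at percentile 78.5 in diabetic liver. Tef went from percentile 57.8 to 86.3 and Dbp from the bottom to 63.8. Usp2 and Gm129 reached percentiles 46.2 and 33.6 from the bottom. Bhlhe40 and Hlf shifted least, from percentile 77.9 to 86.0 and from 25.6 to 35.5.

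**Figure D3:**
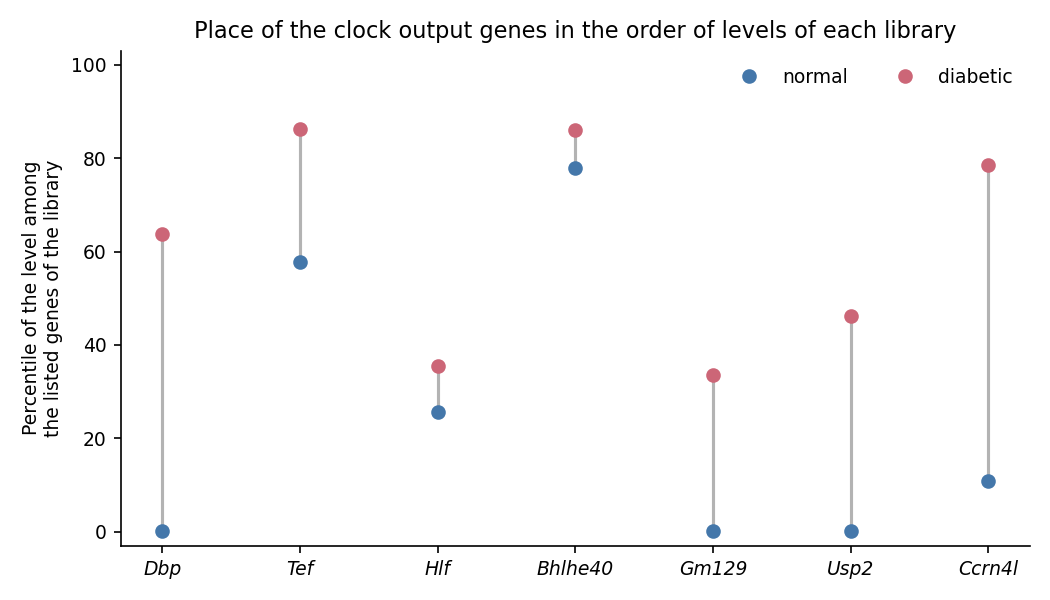
Percentile of the level of each clock output gene among the 8551 listed genes of each library, with a line joining the libraries. Dbp, Gm129 and Usp2 start at the bottom in the normal library, and Ccrn4l stands at percentile 10.9 there and at 78.5 in the diabetic library.

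Dbp, Gm129 and others of these genes are known as direct targets of Clock and Bmal1, so the promoters were searched for the E-box CACGTG, for the D-box as TTATGTAA or TTACGTAA, and for the core of the ROR and Rev-erb element as AGGTCA, each on both strands. RefSeq windows (GRCm38.p6) from 250 bases before to 50 bases after each gene start were at hand for 6 of the 7 members, and Bhlhe40 had none. The E-box was found in Gm129 and Tef, and the D-box and AGGTCA in no window of a member. Of all 32851 windows, 7.15% held the E-box, 1.06% the D-box and 16.3% AGGTCA. Of the 8486 windows of listed genes, 10.4% held the E-box, 0.825% the D-box and 13% AGGTCA. The windows of Gm129 and Tef are shown around their E-boxes, in capitals, because they hold the motif through which the clock is known to drive output genes.
Gm129: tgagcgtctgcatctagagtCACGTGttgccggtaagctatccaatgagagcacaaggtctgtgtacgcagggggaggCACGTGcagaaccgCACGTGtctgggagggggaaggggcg
Tef upstream start: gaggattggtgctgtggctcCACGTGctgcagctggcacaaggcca
Tef downstream start: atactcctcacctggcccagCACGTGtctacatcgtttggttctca

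The stretch of Gm129 lies at chr3:95882247-95882364 on the minus strand, and its E-boxes begin 116, 58 and 44 bases before the gene start. Of all windows 29, or 0.0883%, held 3 or more E-boxes, and 14 of these belonged to listed genes. Tef has 2 starts in RefSeq, with stretches at chr15:81802526-81802571 and chr15:81811256-81811301 on the plus strand, and an E-box begins 127 and 138 bases before them. The windows of Dbp, Hlf, Usp2 and Ccrn4l held none of the letters searched, which says nothing of sites elsewhere.

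Genes described as targets of the PAR bZip factors in liver were read beside them. Of the 10 genes of this list, 8 were listed, 7 of them at least 1.5-fold higher in the diabetic library and 0 lower, with a median log2 ratio of 2.30. Of all listed genes, 34.4% were higher and 15.3% lower. Cyp2a5, a cytochrome P450 named early as a target of Dbp, was at 29.6 TPM in normal and 283 TPM in diabetic liver, with 3.26 as log2 ratio (interval 3.09 to 3.43). Por, the reductase that supplies electrons to P450 enzymes, was at 19.9 and 124 TPM, and Nr1i3, which encodes the xenobiotic receptor CAR, at 32.5 and 176 TPM. Cyp2b10, a classical target of CAR, had 4 and 922 reads, a log2 ratio of 7.45 (6.09 to 9.33). At 0.39 TPM in normal liver, Cyp2b10 was listed only through its level in diabetic liver and had to count as higher. Cyp7a1, the rate-limiting enzyme of bile acid synthesis, had 39 and 229 reads, 4.47-fold higher. Cyp2c50 was 2.42-fold and the lipid-sensing receptor Ppara 2.24-fold higher, while Pdxk, pyridoxal kinase, was at 1.36-fold. All 7 kept 1.5-fold under each of the 4 scalings. These genes have further regulators, and P450 genes have close paralogs whose tags may be split or shared.

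Other liver genes described as clock outputs did not move together. Of 11 such genes 8 were listed, 4 were at least 1.5-fold higher and 1 was lower, with a median log2 ratio of 0.59. Of all listed genes, 34.4% were higher and 15.3% lower. Under TMM scaling 2 of the 8 were higher, near the 24% of all listed genes. Rgs16, a regulator of G protein signalling, was 2.95-fold higher, and Wee1, a cell cycle kinase, was 3.71-fold higher on only 6 and 29 reads. At 0.58 TPM in normal liver, Wee1 was listed only through its level in diabetic liver and had to count as higher. Nampt, an enzyme of NAD synthesis, and Tspan4, a tetraspanin, were 1.74-fold and 1.68-fold higher and fell below 1.5-fold under all 4 scalings. Elovl3, a fatty acid elongase, was 13.8-fold lower, with 272 reads in the normal and 26 in the diabetic library. Insig2 was at 1.34-fold, and Id2 and Cdkn1a were at 1.11-fold and 1.10-fold and went below 1 under each of the 4 scalings.

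Of 11 genes of the core loop 9 were listed, 5 at least 1.5-fold higher (Per1, Per2, Per3, Nr1d1 and Nr1d2) and 1 lower, Arntl, at 13.7 TPM in the normal and 4.96 TPM in the diabetic library (log2 ratio -1.47, interval -1.91 to -1.04). Of all listed genes, 34.4% were higher and 15.3% lower. Per3 had 2 and 40 reads. At 0.19 TPM in normal liver, Per3 was listed only through its level in diabetic liver and had to count as higher. Clock and Cry2 had log2 ratios of -0.22 and 0.15, Cry2 turning below 0 under each of the 4 scalings, and Cry1, at -0.56, was at least 1.5-fold lower under each of them. Ratios to the tags of Arntl in the same library are free of scaling but also hold the difference of Arntl itself, which was 2.77-fold lower. Tef had 0.681 tags per Arntl tag (0.52 to 0.89) in normal and 10.9 (8.43 to 14.2) in diabetic liver. Ccrn4l had 0.106 (0.058 to 0.182) and 6.03 (4.65 to 7.93), and Dbp 0 and 2.85 (2.14 to 3.83). Hlf was at 0.199 (0.127 to 0.299) and 0.97 (0.678 to 1.39), and Bhlhe40 at 1.72 (1.39 to 2.13) and 10.6 (8.26 to 13.7). Nfil3, which binds the D-box as a repressor, was not analysed here.

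**Figure D4:**
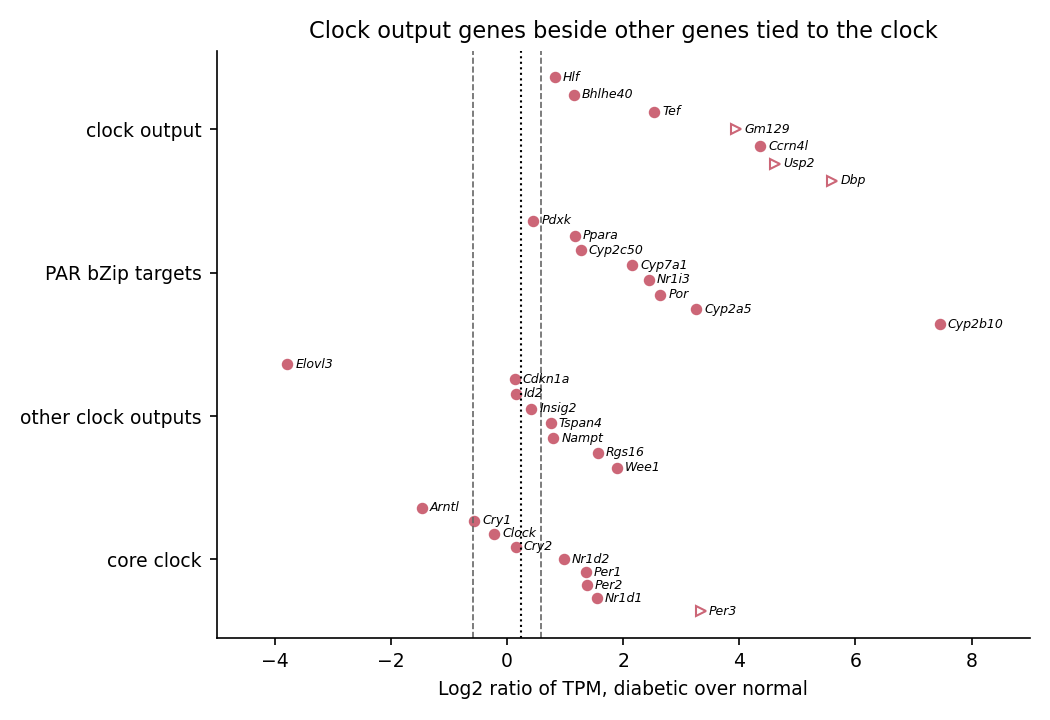
Log2 ratio of TPM, diabetic over normal, of each listed gene in 4 lists of genes tied to the clock, with 1 symbol per gene and open triangles for lower bounds. The dotted line is the median of all listed genes, 0.25, and the dashed lines are 1.5-fold in each direction. All clock output genes and 7 of 8 PAR bZip targets lie to the right of the upper dashed line, Elovl3 and Arntl to the left of the lower one.

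Markers of liver cells were read to see what else differed between the libraries. Of 6 hepatocyte markers 4 were listed, 1 higher and 0 lower, and their summed level was 13769 TPM in normal and 15285 TPM in diabetic liver. The marker that was higher was Cps1, a urea cycle enzyme gene, at 130 and 317 TPM, while Alb, serum albumin, was at 6801 and 6912 TPM. Relative to 1000 tags of Alb, Tef had 1.37 tags (1.11 to 1.67) in normal and 7.82 (7.26 to 8.41) in diabetic liver. By the same measure Bhlhe40 had 3.48 (3.05 to 3.95) and 7.58 (7.03 to 8.17), Ccrn4l 0.215 (0.12 to 0.354) and 4.33 (3.92 to 4.77), and Dbp, Usp2 and Gm129 had 0 in normal against 2.05, 1.03 and 0.653 in diabetic liver. Hlf, at 0.401 (0.266 to 0.579) and 0.696 (0.537 to 0.888), had overlapping intervals here, as it had in TPM. Of 6 Kupffer cell markers 5 were listed, 3 of them at least 1.5-fold lower (4 under TMM scaling) and 0 higher. Their summed level was 273 TPM in normal and 129 TPM in diabetic liver, but the markers differed. C1qa was at 176 and 50.7 TPM, Csf1r at 21.7 and 10.1 TPM and Emr1 at 8.95 and 4.37 TPM. Cd5l was at 64.7 and 62.9 TPM, and Clec4f had 15 reads in each library. Endothelial markers summed to 89.5 and 80.5 TPM with 2 of 5 genes higher (0 under median-ratio scaling) and 1 lower (2 under TMM), stellate cell markers to 77.0 and 107 TPM with 1 of 4 higher and 1 lower, and cholangiocyte markers to 4.28 and 4.22 TPM with 2 of 4 listed. Of the fat cell markers only Cfd was listed, at 5 and 160 reads, and of the erythroid markers only Alas2, at 51.9 and 44.2 TPM. At 0.49 TPM in normal liver, Cfd was listed only through its level in diabetic liver and had to be higher. In bulk liver, fewer cells of a type and less RNA per cell cannot be told apart, and the part of these markers in the differences of the clock output genes was not tested. The leptin receptor gene itself was not analysed here, so the genotype was not checked in the tags.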

How the data were processed

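Poly(A) RNA of liver from normal and diabetic mice was profiled with DpnII tags, 1 library per group. The authors removed adaptors, compared clean tags with RefSeq, counted tags per gene and deposited values they call TPM, which are RPM values, that is tags relative to all clean tags, rounded. They wrote 0.01 for 0 and left out genes with a mean under 1 TPM. The submitters' processing notes name mm9. The aligner is not given in the sources used here. No column of other samples was present (0 not used).

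The step between low values gave the worth of 1 read. Among values of up to 200 reads, 6302 of 6302 in the normal library and 5539 of 5540 in the diabetic library were whole reads within 0.006 TPM. Fold changes are diabetic over normal TPM, with a library at 3 reads or fewer set to 3 reads, and called means at least 1.5-fold, the fold threshold of the study without its FDR criterion. Intervals for ratios and shares are Clopper-Pearson and for levels exact Poisson, at 95%. Intervals between 2 log2 ratios use the normal approximation of counting error. The design planned no p-value, since a library pair has no replicate error. An exact binomial test on reads with Benjamini-Hochberg adjustment was run only as an alternative for the number of called genes, and it compares libraries and not conditions. TMM trimmed 30% of log ratios and 5% of abundances at each end, the median ratio was taken over genes averaging 10 TPM or more, and the upper quartile at percentile 75.

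The members and lists were chosen with earlier results of these data known. Genes named are all members, the genes of the clock lists and, for other lists, genes of a list with 5 or fewer listed, not all of them shown, or with the highest and the lowest ratio. Vdac2 was named after its values were seen, and so were the ratios to Arntl and Alb. Promoter windows were from RefSeq and transcripts from GENCODE, both matched by identifier or symbol, and their build differs from mm9, so they were not joined with coordinates of the authors. A gene in each of 2 lists and the tag of 1 member are not reported here. The computation was tested on simulated reads. Scripts ran under Python 3.11.15 with pandas 2.3.3, numpy 2.4.6, matplotlib 3.10.9 and scipy 1.17.1.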

Additional observations from a re-analysis of the deposited data

How the results depend on the processing

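Of the 7 members, 6 were at least 1.5-fold higher under each of the 4 scalings and 7 with pseudocounts of 0.1 and 1 TPM, and 0 were lower. With a pseudocount of 0.1 TPM, 2887 of the 8551 listed genes were higher and 1279 lower, and with 1 TPM 2501 and 1023. A pseudocount, a filter or a threshold cannot turn the sign of a ratio. At a mean of at least 5 TPM only 4 members, Dbp, Tef, Bhlhe40 and Ccrn4l, were left, and all 4 were higher. Dbp and Ccrn4l, at 0 and 1.46 TPM in normal liver, could reach that mean only by being higher in the diabetic library. By construction fewer genes were then counted. Among the listed genes with that mean 1773 were higher and 658 lower, and their share of this smaller set was not computed. At a threshold of 2, 6 members were higher, and 1589 and 582 of all listed genes were higher and lower, against 2941 and 1310 at 1.5-fold. With an FDR under 0.001 in the exact binomial test added, these were 1955 and 700. Scaling by the sum of the listed genes gave 2044 lower genes, TMM 2022 and upper quartile 2069, and median ratio gave 1874 higher and 2189 lower. The median log2 ratio of the members was 4.27 with a pseudocount of 0.1 TPM and 2.46 with 1 TPM, since the level of Dbp, Gm129 and Usp2 in the normal library is set by that choice. The share of Dbp was 20.7% when Hlf was left out. Over the 64 genes looked up that had more than 3 reads in each library, 338 of 439 recomputed ratios stayed within the interval of counting error, 101 moved beyond it and 0 called ratios changed sign.

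Depth limits Hlf, with 28 and 65 reads, and the 3 members without reads in the normal library. No paired analysis was possible because each group has 1 library.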

Other observations

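Genes that follow systemic daily cues such as body temperature had log2 ratios of different sign, a cold-inducible gene being higher and heat shock genes lower. Of 6 such genes 3 were listed. The cold-inducible RNA-binding protein gene Cirbp, at 13.3 TPM in normal and 33.2 TPM in diabetic liver, was 2.49-fold higher, and the heat shock protein genes Hsph1 and Hsp90aa1 were 2.10-fold and 1.58-fold lower, with the same directions under the 4 scalings.

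Of 6 genes induced by glucocorticoid 5 were listed, 2 at least 1.5-fold higher and 0 lower. Of all listed genes, 34.4% were higher and 15.3% lower, so the count of higher genes was near that share. Pck1, the gluconeogenic enzyme gene, was at 668 and 2047 TPM and Fkbp5, a chaperone of the glucocorticoid receptor, at 34 and 175 reads, 3.92-fold higher, while Tat, tyrosine aminotransferase, was at 1763 and 1533 TPM. Of 7 genes for the turnover of clock proteins 4 were listed, and 0 differed at least 1.5-fold in the deposited values, against 2 lower under TMM scaling. Csnk1d, a kinase of the Per proteins, was at 8.95 and 8.88 TPM.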
